A study of Mus musculus with 2 samples.

Results

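The genes described here are 10 regulators and markers of the nephrogenic lineage: Meox1, Meox2, Six2, Cited1, Crym, Sall1, Wt1, Pax2, Pax8 and Lhx1. They were chosen by name, with earlier results of these data known. Their probes were found through the RefSeq accession that the scanner files give for each probe. The 10 genes are carried by 12 of the 39408 gene probes with a value on both arrays, with a pair of probes each for Six2 and Pax2. All 10 were measured among the 21337 genes whose signal was well above background, and 1 of the Pax2 probes was not. Of these 21337 genes, 15805 have a gene symbol. The rest are accessions that could not be matched to a symbol and are counted as genes, so a gene may be counted more than once. The material was whole ureters of wildtype NMRI mouse embryos of mixed sex, dissected at E12.5 and kept for 18 h on transwell membranes. Cultures received 10 µg/ml NOGGIN, a secreted antagonist of bone morphogenetic proteins (BMPs) that blocks their binding to receptors, or medium without NOGGIN. The data are 2 Agilent 2-colour arrays, called replicates 1 and 2, each with 1 NOGGIN and 1 control culture, and the dyes were exchanged between them. The labels do not give the number of embryos per culture or say whether the replicates came from separate litters. The p-values therefore measure only the spread between these samples, which may be technical. The test used, limma, draws that spread in part from all genes.

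Nephrons arise from the metanephric mesenchyme. Cells of the cap mesenchyme around the ureteric bud tips are kept as progenitors by SIX2 and carry CITED1, while WNT signals turn some of them into epithelial vesicles that switch on PAX8 and LHX1. PAX2, SALL1 and WT1 act earlier and more broadly, WT1 also in podocytes and in the mesothelium that covers the urogenital organs. The ureter lies below the kidney and makes no nephrons, but its epithelium and the nephric duct share PAX2, PAX8 and LHX1 with the early nephron. MEOX1 and MEOX2 are homeodomain factors of the somites that are also found in other mesenchyme. BMPs signal through SMAD factors, and the Id genes are their usual transcriptional readout.

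Values below are log2 ratios of the NOGGIN-labelled over the control-labelled channel, with the channels assigned by the labelled dyes, and a gene called higher or lower is so in the NOGGIN-labelled channel. This direction is not settled. All 9 BMP readout genes examined (Id1, Id2, Id3, Id4, Smad6, Smad7, Smad9, Msx1 and Msx2) were higher, from 0.55 for Smad7 to 2.73 ± 0.87 for Id2 (SD, n = 2; adjusted p = 0.00975 for Id2, limma), whereas a BMP antagonist is known to lower such genes. The authors' deposited table gives 1 signed fold change per probe and array and has the opposite sign. In the authors' deposited table Id2 stands at -4.19 and -10.5 and Meox1 at 4.10 and 4.98 on replicates 1 and 2. Across the 21337 genes, which are not independent replicates, the log2 values of that table had a Pearson r of -0.956 with the label-oriented ratio on each array. The sample titles word the comparison as NOGGIN against control, but no source used here states which culture is on top in the table. If the dyes were entered the wrong way round, each "lower" below becomes "higher" and the reverse, with the same size and p.

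Of the 10 genes, 3 were lower in the NOGGIN-labelled channel, 0 were higher and 7 did not pass an adjusted p of 0.05 (limma, Benjamini-Hochberg over 21337 genes). The share of all genes called was 7.97%, with 4.03% lower and 3.95% higher. Since the 10 were chosen with earlier results known, their counts are not an independent comparison with the shares of all genes. The 3 were Meox1, with the largest difference of the 10, Wt1 and Lhx1. Six2 and Cited1, the defining genes of the cap mesenchyme, differed by less than 0.10 on average. Both arrays showed at least 1.5-fold differences of 1 sign for Meox1 and Lhx1, 2 of 10, against 2.9% of all genes. The sign was the same on both arrays for 7 of the 10, which is close to the 66.7% of all genes. The median over the 10 genes was 0.039 (-0.014 on replicate 1 and 0.0053 on replicate 2), and that of all genes was 0.00083. Of the 10, 4 were below 0 on both arrays, 3 were above 0 on both and 3 had a different sign on each. Where the arrays were only centred on their median, without the intensity-dependent loess step, 0 of all genes passed in limma (3572 had an unadjusted p under 0.05), and the ratios of Meox1, Wt1 and Lhx1 were -1.75, -0.87 and -0.75 (adjusted p = 0.0868, 0.156 and 0.124).

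**Figure D1:**
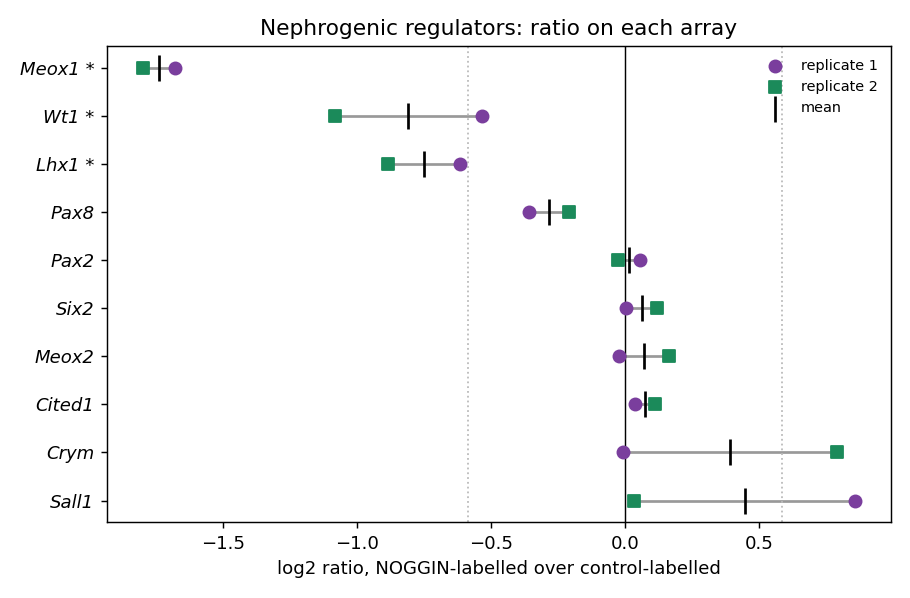
Log2 ratio of the NOGGIN-labelled over the control-labelled channel for each of the 10 genes (circle, replicate 1; square, replicate 2; black tick, mean of both arrays). Dotted lines mark a 1.5-fold difference and asterisks mark genes called in limma; Meox1 lies near -1.7 on both arrays, and Crym and Sall1 have their arrays far apart.

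Meox1, a homeodomain factor needed for the patterning of somites and also found in nephron progenitors, had normalised log2 intensities of 8.04 and 7.70 in the NOGGIN-labelled channels of replicates 1 and 2, against 9.72 and 9.50 in the control-labelled channels. On each array the NOGGIN-labelled value lay below the control-labelled one. The log2 ratios were -1.68 and -1.80, a 3.20-fold and a 3.48-fold difference, with a mean of -1.74 ± 0.086 (SD, n = 2; adjusted p = 0.00338, limma). Among the means of all 21337 genes it stood at rank 19 from the lowest. The individual spots were close to each other, from -1.75 to -1.64 over 4 spots on replicate 1 and from -1.82 to -1.77 over 3 spots on replicate 2, where 1 spot was left out as an outlier. On the scanner's scale, the NOGGIN-labelled signal was 178 and 278 and the control-labelled signal 1033 and 577. The local background was about 25.3 in the green and 118 in the red channel that carried the NOGGIN label, so the NOGGIN-labelled signal was 7.03 and 2.35 times its background and the control-labelled signal 8.35 and 24.4 times. With an offset of 0 in place of the 50 that was added to every intensity, and no other change, the ratio of Meox1 was -1.91 on replicate 1 and -2.09 on replicate 2. The mean was -2.16 with Agilent's processed signals, where the background correction and the normalisation differ as well.

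Meox2, the paralogue of Meox1 and a factor of limb muscle precursors and vascular cells, did not pass. Its normalised log2 intensities were 8.25 and 8.43 in the NOGGIN-labelled channels, against 8.27 and 8.27 in the control-labelled channels. The mean ratio was 0.072 ± 0.13 (95% interval of limma -0.14 to 0.28; adjusted p = 0.68), so the groups did not separate. The log2 ratio of Meox1 minus that of Meox2 was -1.66 on replicate 1 and -1.97 on replicate 2. The 95% interval of Meox1 ran from -1.94 to -1.54 and did not overlap that of Meox2. It also lay below the intervals of Wt1, which began at -1.17, and of Lhx1, which began at -0.99. The gap is therefore not particular to Meox2, and Meox1 was chosen with earlier results known.

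**Figure D2:**
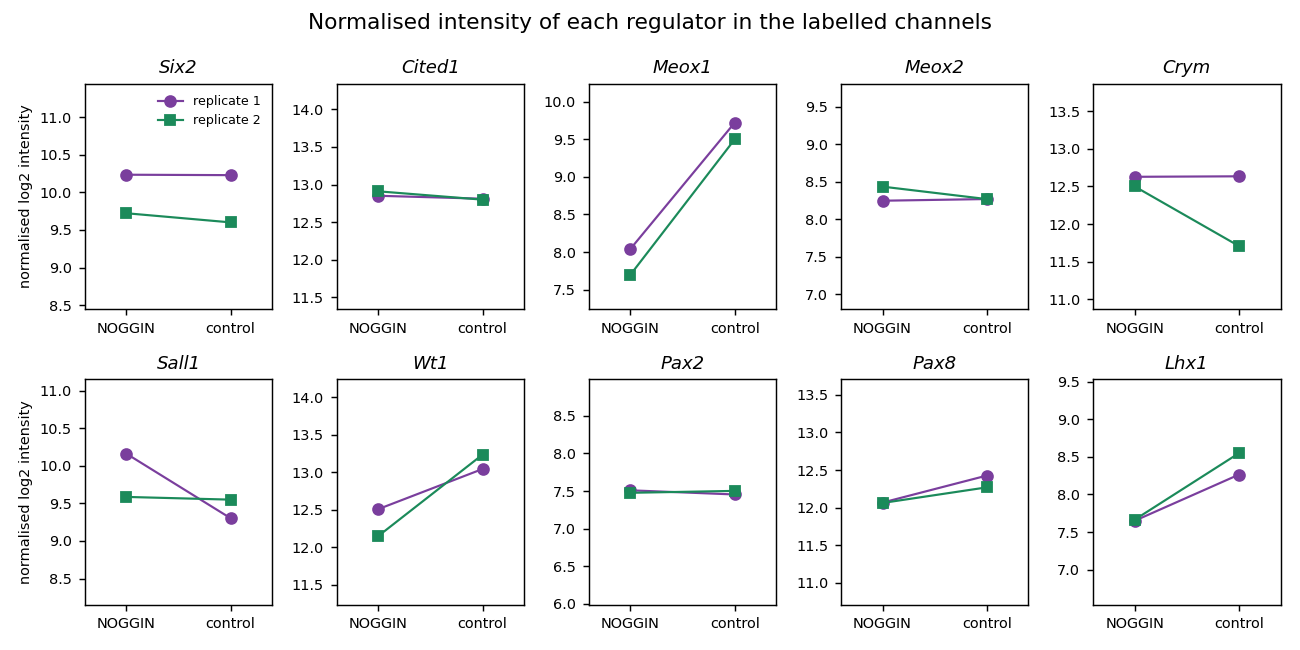
Normalised log2 intensity in the NOGGIN-labelled (left) and control-labelled (right) channel of each array for the 10 genes, with a line joining the channels of 1 array (purple circles, replicate 1; green squares, replicate 2). Every panel spans 3 log2 units around its own centre, and heights are not comparable between genes. Meox1 shows the steepest lines, and Sall1 and Crym each have 1 steep and 1 flat line.

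The genes that define the cap mesenchyme stayed close to 0. Six2, the factor that keeps nephron progenitors undifferentiated, had 10.23 and 9.72 in the NOGGIN-labelled channels, against 10.23 and 9.60 in the control-labelled channels. The arrays differed more than the channels did. Its mean ratio was 0.064 ± 0.082 (95% interval -0.13 to 0.26; adjusted p = 0.692), and its dimmer probe gave 0.30 on replicate 1 and -0.039 on replicate 2. Cited1, a transcriptional coactivator without a DNA-binding domain of its own, was far above background, at 244 and 84.3 times in the NOGGIN-labelled channels and 74.8 and 250 times in the control-labelled channels. Its normalised log2 intensities were 12.85 and 12.91 (NOGGIN-labelled), against 12.81 and 12.80 (control-labelled), with a mean ratio of 0.075 ± 0.051 (95% interval -0.11 to 0.26; adjusted p = 0.615). For Six2 and Cited1 the intervals end below a 1.5-fold difference in either direction, which is 0.585 on the log2 scale. These intervals rest on 2 arrays and on a spread that limma draws in part from all genes.

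Crym, which encodes a thyroid hormone binding protein and is a marker of nephron progenitors in the kidney, gave arrays that disagreed. Its normalised log2 intensities were 12.63 and 12.501 in the NOGGIN-labelled channels, against 12.64 and 11.71 in the control-labelled channels, so 1 of the 4 values, the control of replicate 2, was low. The ratio was -0.0066 on replicate 1 and 0.79 on replicate 2, a mean of 0.39 ± 0.56 (95% interval -0.093 to 0.88; adjusted p = 0.298). Sall1, a zinc finger factor that the metanephric mesenchyme needs to draw in the ureteric bud, had its difference on the other array. It had 10.16 and 9.59 in the NOGGIN-labelled channels, against 9.30 and 9.55 in the control-labelled channels, and its ratio was 0.86 on replicate 1 and 0.036 on replicate 2. The mean for Sall1 was 0.45 ± 0.58 (95% interval -0.051 to 0.95; adjusted p = 0.256). The spots of a probe were close together in each case, from 0.75 to 0.82 for Crym on replicate 2 and from 0.75 to 0.92 for Sall1 on replicate 1, so the disagreement lies between arrays and not between spots. A gap between arrays as large as that of Sall1, 0.82, was found in 0.651% of all genes (139 genes), and one as large as that of Crym, 0.80, in 0.703%. With dyes exchanged between the 2 arrays, a dye effect on a probe and a difference between the replicate cultures cannot be told apart.

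**Figure D3:**
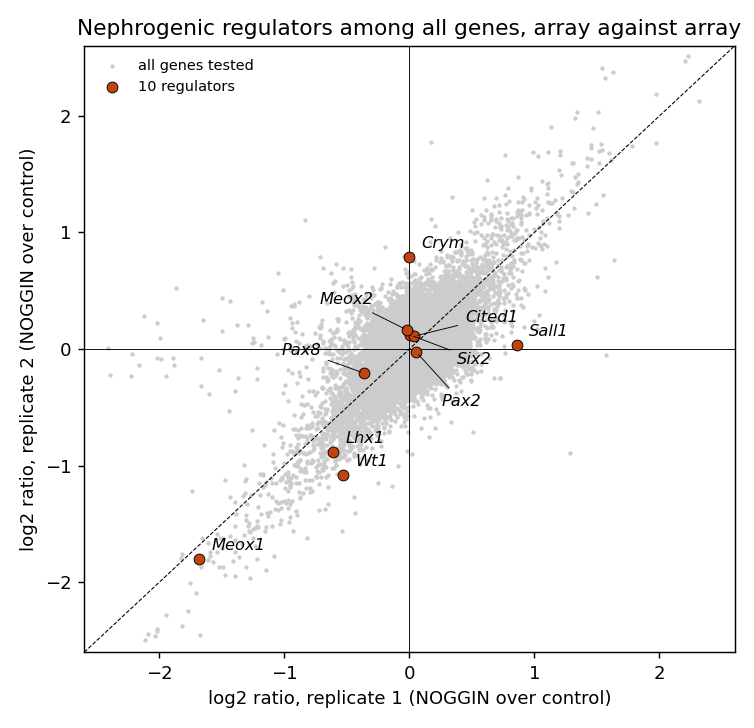
Log2 ratio on replicate 2 against that on replicate 1 for all genes tested (grey; 6 genes outside the axes are not drawn) and the 10 regulators (orange). Meox1, Lhx1 and Wt1 lie in the lower left, where both arrays are negative. Crym lies on the vertical and Sall1 near the horizontal zero line.

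Wt1, a zinc finger factor of the nephrogenic mesenchyme, podocytes and mesothelium, was lower. Its normalised log2 intensities were 12.51 and 12.15 in the NOGGIN-labelled channels, against 13.04 and 13.24 in the control-labelled channels. The difference was 1.45-fold on replicate 1 and 2.12-fold on replicate 2 (log2 ratios -0.53 and -1.08, mean -0.81 ± 0.39; adjusted p = 0.0354, limma). The arrays were 0.55 apart, a gap that 2.11% of all genes reached, so the direction was shared and the size was not. Fitted on the values of the authors' deposited table, Wt1 missed the threshold (adjusted p = 0.0547). The gene beside it on the chromosome, Wt1os, a transcript antisense to Wt1, was also lower, at -0.59 and -0.57 on the 2 arrays (mean -0.58 ± 0.012; adjusted p = 0.0151, limma). Its normalised log2 intensities were 7.69 and 7.60 in the NOGGIN-labelled channels, against 8.28 and 8.17 in the control-labelled channels. Them7, the nearest measured gene on the other side of Wt1, did not pass (-0.15 ± 0.12; adjusted p = 0.368). The probe sequences were not used here, so whether either probe also captures the other transcript was not examined.

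Pax2 and Pax8, paired-box factors that together specify the nephric lineage, did not pass. The brighter Pax2 probe had 7.51 and 7.48 in the NOGGIN-labelled channels, against 7.45 and 7.50 in the control-labelled channels (mean ratio 0.015 ± 0.057; 95% interval -0.17 to 0.20; adjusted p = 0.939). It was dim, at 5.03 and 2.10 times the local background in the NOGGIN-labelled channels and 2.01 and 4.82 times in the control-labelled channels, and the second Pax2 probe was not well above background in any channel. Pax8, which marks the first epithelial nephron structures and the ureteric epithelium, had 12.07 and 12.06 in the NOGGIN-labelled channels, against 12.43 and 12.27 in the control-labelled channels. The ratios were below 0 on both arrays but small, -0.36 and -0.21 (mean -0.28 ± 0.11). The gene missed the threshold (unadjusted p = 0.0153, adjusted p = 0.11, limma). At an unadjusted p of 0.05 the count among the 10 genes was 4, these being Pax8 and the 3 called genes, against 23.2% of all genes.

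Lhx1, a LIM homeodomain factor of the nephric duct and of the first nephron epithelia, was lower. Its normalised log2 intensities were 7.65 and 7.66 in the NOGGIN-labelled channels, against 8.26 and 8.55 in the control-labelled channels. The differences were 1.53-fold and 1.85-fold (log2 ratios -0.61 and -0.88, mean -0.75 ± 0.19; adjusted p = 0.0156, limma). The probe was dim, with a NOGGIN-labelled signal of 5.38 and 2.35 times and a control-labelled signal of 3.20 and 11.3 times the local background, and its ratio was -1.09 with Agilent's processed signals. The neighbouring genes Aatf and Mrm1 did not pass, at -0.053 ± 0.073 and 0.0038 ± 0.0025 (adjusted p = 0.745 and 0.986). Nor did the measured neighbours of Meox1, namely Etv4, an ETS factor gene, at -0.13 ± 0.15 and 4930417O22Rik at 0.070 ± 0.0011 (adjusted p = 0.45 and 0.634), of which 4930417O22Rik was well above background in the control-labelled channel of 1 of 2 arrays.

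RefSeq's promoter table, build GRCm38.p6, holds an entry for 7 of the 10 genes, which do not include Meox1, Wt1 and Crym. The 250 bases before the transcription start are shown for Lhx1, the called gene with an entry, and for Pax8, the gene that came nearest to the threshold and was also below 0 on both arrays. They are written 5′ to 3′ on the strand of the gene, and capitals mark the CCAAT box in either orientation (CCAAT or ATTGG). The Lhx1 stretch is chr11:84525535-84525784 and the Pax8 stretch chr2:24475600-24475849, both on the minus strand.
Lhx1: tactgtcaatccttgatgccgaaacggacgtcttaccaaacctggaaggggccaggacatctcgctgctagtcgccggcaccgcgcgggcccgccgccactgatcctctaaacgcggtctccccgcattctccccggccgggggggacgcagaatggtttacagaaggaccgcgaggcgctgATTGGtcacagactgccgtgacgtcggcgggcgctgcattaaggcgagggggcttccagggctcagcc
Pax8: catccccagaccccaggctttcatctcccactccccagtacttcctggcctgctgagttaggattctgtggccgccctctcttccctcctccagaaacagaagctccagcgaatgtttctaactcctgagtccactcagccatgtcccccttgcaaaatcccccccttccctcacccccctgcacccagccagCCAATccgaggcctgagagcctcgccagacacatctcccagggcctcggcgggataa
Each holds 1 CCAAT box, which begins 68 bases before the start in Lhx1 and 57 bases before it in Pax8. Such a box was found in 33.8% of all 32851 windows of this length. The letters GGCGCC, a GC-rich motif that SMAD factors can bind, were in neither stretch, and 9.59% of all windows hold them. The letters TATAAA, searched on both strands, were in neither either, against 12.4% of all windows. These matches describe the sequence alone.

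The search for genes with a pair of array ratios near that of Meox1 was limited to called genes with a symbol. Predicted genes and clone names were left out. By Euclidean distance over the 2 arrays, the nearest of the rest were Casq2, Rspo1, Hic1, Ebf2 and Nppc. Casq2, a calcium-storing protein of the sarcoplasmic reticulum, was at -1.71 ± 0.14 (distance 0.069). Rspo1, a secreted enhancer of WNT signalling, followed at -1.77 ± 0.15 (distance 0.074), and Hic1, a zinc finger repressor of mesenchymal cells, at -1.69 ± 0.13 (distance 0.085). The transcription factor gene Ebf2 was at -1.70 ± 0.18 (distance 0.115) and Nppc, which encodes C-type natriuretic peptide, at -1.79 ± 0.040 (distance 0.143). Nppc was well above background in the NOGGIN-labelled channel of 1 of 2 arrays, so its size is uncertain. Only called genes could be chosen, so that all 5 passed in limma (adjusted p between 0.00338 and 0.00342) follows from the choice. With 2 arrays, likeness of this kind says only that the ratios were of similar size.

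Other genes of the nephron progenitor went both ways. For this list and those below, 4.03% of all genes were called lower and 3.95% higher, and the lists were chosen with earlier results known. Of 24 listed, 21 were measured, and 2 were higher, 5 lower and 14 did not pass, with a list median of -0.083 (-0.11 on both replicates). Bmp7, a BMP that sustains progenitors, was at -1.40 ± 0.20 (adjusted p = 0.00442) and Eya2, a cofactor of SIX2 and its relatives, at -1.19 ± 0.24 (adjusted p = 0.00676). Traf1, an adaptor of TNF receptors, was higher by 0.94 ± 0.11 (adjusted p = 0.00645) and Itga8, the integrin subunit through which the mesenchyme binds nephronectin, by 0.76 ± 0.085 (adjusted p = 0.00944). Uncx, Fgf20 and Clec18a were not well above background.

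Genes of the early nephron also went both ways. Of 23 listed, 21 were measured, and 2 were higher, 5 lower and 14 did not pass, with a median of -0.12 (-0.053 on replicate 1 and -0.23 on replicate 2). Osr2, a zinc finger factor, was at -2.01 ± 0.34 (adjusted p = 0.00427), and the NOTCH ligand gene Dll1 was at -1.02 ± 0.078 (adjusted p = 0.00532). The genes of the secreted modulators Bmper and Dkk1, which act on BMP and WNT signals, were higher by 0.91 ± 0.036 and 0.60 ± 0.11 (adjusted p = 0.00596 and 0.0181). The genes of later nephron cells were partly undetected. Of 13 podocyte genes 10 were measured, with 1 higher and 2 lower, and the slit diaphragm gene Nphs1 was not well above background. Npnt, the ligand of the integrin that holds ITGA8, was at -0.72 ± 0.20 (a second probe gave -0.31), and Tcf21, a factor of mesenchyme and podocytes, was higher by 0.62 ± 0.14 (adjusted p = 0.0182 and 0.0189). Of 12 tubule genes 6 were measured, with 1 higher and 0 lower, while Hnf4a, Slc12a1 and Umod were among those not well above background. Cubn, an endocytic receptor gene, was the called one, at 0.62 ± 0.060 (adjusted p = 0.0141, second probe 0.38), and Aqp1, a water channel gene, gave 0.37 ± 0.085 (adjusted p = 0.0534).

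**Figure D4:**
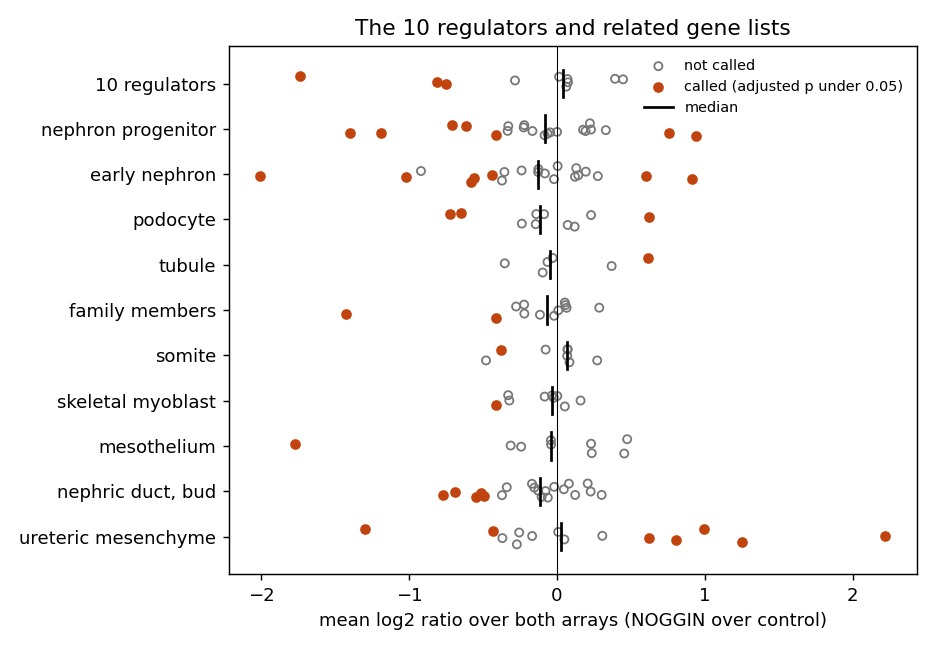
Mean log2 ratio over both arrays for the 10 regulators and for each measured gene of the related lists (filled, adjusted p under 0.05 in limma; open, not called; black bar, list median). Every list scatters to both sides of 0, and list medians lie between -0.12 and 0.071.

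Close relatives of the 10 genes were mostly undetected or not called. Of 21 other genes of the PAX, SALL, LHX, CITED and Six2 families 12 were measured, and 0 were higher, 2 lower and 10 missed the threshold (their median was -0.067, with -0.023 on replicate 1 and -0.25 on replicate 2). Among the lower ones was Cited4, a relative of Cited1, at -1.42 ± 0.21 (adjusted p = 0.00442). The ratio of Cited4 was -1.27 and -1.57 on the arrays where Cited1 had 0.039 and 0.11.

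Whole explants were measured, so fewer cells of a type and less RNA per cell cannot be told apart. The 10 genes are also expressed in other cells that an explant could hold, and markers of those cells were counted. All 14 listed genes of the ureteric mesenchyme, a part of the labelled ureters, were measured, with 5 higher, 2 lower and 7 not passing. Among them Sox9 was at 2.22 ± 0.13, Tbx18 at 1.25 ± 0.27, Gata6 at 0.99 ± 0.14 and Bmp4 at -1.30 ± 0.25 (adjusted p = 0.00338, 0.00702, 0.00634 and 0.00616). Of 21 genes of the nephric duct and ureteric epithelium, where Pax2, Pax8 and Lhx1 are found, 20 were measured, with 0 higher, 5 lower and 15 not passing (median -0.11, range -0.77 to 0.30). The median was -0.034 on replicate 1 and -0.21 on replicate 2. The called ones with the largest ratios were the claudin genes Cldn3 and Cldn4 at -0.77 ± 0.078 and -0.55 ± 0.22 and the WNT ligand genes Wnt9b and Wnt11 at -0.69 ± 0.27 and -0.51 ± 0.077 (adjusted p = 0.00884, 0.0386, 0.0293 and 0.0231).

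Mesothelial genes, set beside Wt1, had 0 higher, 1 lower and 8 not passing of 9 measured (11 listed; median -0.039, with 0.088 on replicate 1 and -0.14 on replicate 2). The lower one was Rspo1, which belongs to the genes nearest to Meox1 as well, and Upk1b gave 0.48 ± 0.31 (adjusted p = 0.0892). Somite genes, set beside Meox1 and Meox2, had 0 higher, 1 lower and 7 not passing of 8 measured (13 listed; median 0.071). Tcf15, a bHLH factor of the somite, was at -0.38 ± 0.036 (adjusted p = 0.0454) and Foxc1 at -0.48 ± 0.26 (adjusted p = 0.0661), while Pax1, Pax3, Pax9, Uncx and Tbx22 were not well above background. Skeletal myoblast genes had 0 higher, 1 lower and 8 not passing of 9 measured (12 listed; median -0.032), with Actn2, not well above background in the NOGGIN-labelled channel of replicate 2, at -0.33 ± 0.14 (adjusted p = 0.0912). The part of these cells in the ratios of the 10 genes was not tested.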

How the data were processed

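The members, gene lists and alternatives were chosen with earlier results of these data known. Per the labels' protocols, RNA (200 ng a sample) went through 1 amplification round and received the dye Alexa Fluor 555 or 647, read in the green and red channels. The deposited scanner files hold spot intensities from Agilent Feature Extraction (version 10.7.3.1 in the submitters' processing notes) and a log10 ratio of red over green that was not used. The authors' deposited table is a score, a signed fold change per probe, whose normalisation and direction are not given in the sources used here. It has a median of 1 on both arrays.

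Per the file headers, slide and scan were shared by both arrays. Each probe has 4 spots. Outlier spots (3.69%) were left out. Background was corrected with normexp (offset 50), each array was normalised with loess, and spots were averaged. Probes were named by accession through RefSeq (GRCm38.p6). Probes stayed in where more than a share of 0.5 of the spots lay well above background in the same condition on each array, and the brightest probe stood for a gene. Log2 ratios were tested against 0 with limma 3.58.1 in R 4.3.3 (lmFit and eBayes, two-sided, Benjamini-Hochberg), with 1 residual and 4.12 prior degrees of freedom. Intensities per channel were quantile-scaled in their average only, which leaves ratios as they are. Between 67.3% and 74.3% of gene spots were well above background, 0 were saturated, and the number of arrays, 2, limits the precision. The steps were also run on simulated arrays with known differences and the same noise spread for all probes, and the outcome is not reported here. Besides the 10 genes, the text names the BMP readout genes, up to 4 called genes with the largest ratios in each list (in lists with under 2 calls, the 2 largest ratios), the 5 genes nearest to Meox1 and the measured neighbours of called genes. Other genes are named only as not well above background. Some genes that this rule covers are counted but not reported here by name.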

Additional observations from a re-analysis of the deposited data

How the results depend on the processing

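The alternatives were normexp with offset 0, no background correction, the scanner software's processed signals with median centring, loess with quantile scaling of intensities, no filter on dim probes, a filter on both channels, the median of spots, the mean of a gene's probes, limma with trend, with robust hyperparameters or on separate channels, median centring without loess, the deposited table, and each array alone. In the first 11 of these, Meox1 ranged from -2.16 to -1.74, Wt1 from -0.82 to -0.81 and Lhx1 from -1.09 to -0.75, and each was called in all 11, with adjusted p up to 0.00437, 0.0355 and 0.0161. The quantile scaling, the filter changes, the mean of probes and the limma variants could not change the ratios of Meox1, Wt1 and Lhx1. Their ranges come only from the background settings, the processed signals and the median of spots, so the 11 settings are not independent checks. The other 7 genes were called in none of the settings run. Median centring without loess called 0 genes at all, hence 0 of the 10 (limma; 3572 genes had an unadjusted p under 0.05, 4 of the 10 among them), while Meox1, Wt1 and Lhx1 kept values of -1.75, -0.87 and -0.75 (adjusted p = 0.0868, 0.156 and 0.124); the cause was not tested. The authors' deposited table, fitted with its own sign, gave 2.18 for Meox1, 0.82 for Wt1 and 1.05 for Lhx1 (adjusted p = 0.00826, 0.0547 and 0.017), so the call of Wt1 was lost there. Single arrays, replicate 1 and then replicate 2, gave Meox1 -1.68 and -1.80, Wt1 -0.53 and -1.08 and Lhx1 -0.61 and -0.88, without a test. The count of genes called, 1701, was 378 at an adjusted p of 0.01 and 2691 at 0.1. The count with 1.5-fold on both arrays, 618, was 949 with Agilent's processed signals, 946 in the deposited table and 179 at 2-fold, and 948 to 1087 genes reached 1.5-fold on 1 array alone. The test of the ratios against 0 is itself paired, since each ratio sets the NOGGIN against the control culture of 1 array. No paired analysis was possible beyond that one, because a replicate term on the 2 ratios would leave 0 residual degrees of freedom.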
